A study of Mus musculus with 8 samples.

Results

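Phosphodiesterases (PDEs) are the enzymes that hydrolyse the second messengers cyclic AMP (cAMP) and cyclic GMP (cGMP), and Prkg1 encodes the cGMP-dependent protein kinase (PKG) that carries much of the cGMP signal in muscle. The 10 genes described here were taken by name: Prkg1, Pde1a, Pde1c, Pde2a, Pde3a, Pde3b, Pde4b, Pde4d, Pde5a and Pde9a. Of these 10, 9 had a row in the count table and all 9 passed the filter on low counts, among 14875 genes tested and 22403 genes with a count. Pde2a was not analysed here. Bulk RNA was sequenced from the left ventricle of 8 mice: 4 on 0.5% L-NAME combined with high-fat feeding (HFD-LNAME) and 4 on standard feed (Normal Chow). Both groups are of the strain that the labels write as C57BL/5NJ, and both were kept on their diets for 9 weeks from 12 weeks of age. L-NAME inhibits the nitric oxide synthases, and with a high-fat diet it is used as a model of heart failure with preserved ejection fraction. As the high-fat diet and L-NAME were given together, their separate parts cannot be told apart. The labels give no sex, genotype or batch. Each library has its own number in its title, taken here as that of a single mouse, so p-values are read as measuring the spread between single animals.

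In the heart, nitric oxide raises cGMP through soluble guanylyl cyclase, natriuretic peptides raise it through receptors that are themselves guanylyl cyclases, and adrenergic receptors raise cAMP through adenylyl cyclases. PKG and the cAMP-dependent kinase PKA then phosphorylate proteins of contraction, calcium handling and vessel tone. PDEs end these signals in small compartments of the cell, and some of them join both pathways because one cyclic nucleotide activates or inhibits the hydrolysis of the other.

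Promoter windows show where transcription of these genes starts and which short motifs lie there. RefSeq windows (mouse build GRCm38.p6, from the C57BL/6J strain), from 250 bases before to 50 after a transcription start, matched 6 of the 9 measured genes, with 15 windows in all. The cAMP response element (TGACGTCA) was in 0 of the 15 windows, against 1.79% of all 32851 windows. Its core (TGACG on either strand, a motif that the full element also contains) was in 2 windows (13.3%), 1 each of Pde1a and Pde4b, against 20.8% of all windows. The GC box (GGGCGG on either strand) was in 3 windows, those of Pde5a and both of Prkg1, against 35.7% of all windows. The CArG box, a motif of smooth muscle and cardiac promoters, was in 0 windows, against 1.63% of all windows. A match is only a run of letters in the window and does not show that a factor is bound. The windows below are those of the kinase, of the cGMP-specific Pde5a, and of both cAMP-specific Pde4 genes, with the first listed of the 2 windows of Prkg1 and of the 4 of Pde4b, printed 5′ to 3′ on the strand of the gene. Capitals mark a GC box in Prkg1 and Pde5a and the core of the cAMP response element, read on the opposite strand, in Pde4b. The Pde4d window holds none of the searched motifs. Its GC content was 39.7%, against 66.3% for Pde5a, 55.3% for the printed window of Prkg1 (62.3% for the other), 47.0% for the printed window of Pde4b (43.3% to 51.3% for the other 3) and a median of 52.7% over all windows.
Prkg1, chr19:31764984-31765283, minus strand: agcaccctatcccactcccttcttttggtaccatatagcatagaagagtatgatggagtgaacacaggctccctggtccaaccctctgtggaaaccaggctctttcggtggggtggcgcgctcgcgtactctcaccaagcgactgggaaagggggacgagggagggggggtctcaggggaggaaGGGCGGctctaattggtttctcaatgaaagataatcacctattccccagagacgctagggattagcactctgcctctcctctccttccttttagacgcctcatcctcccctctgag
Pde5a, chr3:122728908-122729207, plus strand: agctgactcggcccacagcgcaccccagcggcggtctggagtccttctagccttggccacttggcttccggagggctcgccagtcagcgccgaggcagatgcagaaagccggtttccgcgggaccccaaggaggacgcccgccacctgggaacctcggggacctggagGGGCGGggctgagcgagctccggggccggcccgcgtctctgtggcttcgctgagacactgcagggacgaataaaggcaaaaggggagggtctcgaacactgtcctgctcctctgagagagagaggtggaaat
Pde4b, chr4:102421305-102421604, plus strand: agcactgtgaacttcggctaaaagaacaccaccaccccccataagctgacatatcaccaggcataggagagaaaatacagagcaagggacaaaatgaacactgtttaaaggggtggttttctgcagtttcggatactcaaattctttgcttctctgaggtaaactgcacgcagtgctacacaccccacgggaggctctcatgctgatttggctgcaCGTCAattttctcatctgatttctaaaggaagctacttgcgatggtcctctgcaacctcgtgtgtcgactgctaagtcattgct
Pde4d, chr13:108653927-108654226, plus strand: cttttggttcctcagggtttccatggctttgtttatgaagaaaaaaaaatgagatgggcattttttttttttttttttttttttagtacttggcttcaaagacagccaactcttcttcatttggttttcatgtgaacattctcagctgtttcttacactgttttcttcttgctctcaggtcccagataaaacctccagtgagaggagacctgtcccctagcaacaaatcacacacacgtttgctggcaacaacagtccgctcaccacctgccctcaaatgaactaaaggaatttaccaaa

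Total counts per library were 31522074 to 41047658 in HFD-LNAME and 41852705 to 52053633 in Normal Chow, so the HFD-LNAME libraries are the shallower ones. Levels are given as CPM, the count of a gene scaled to a common library size, on totals adjusted by TMM factors. In all 8 libraries the 10 cardiomyocyte markers had counts, with a summed level of 101035 to 126904 CPM in HFD-LNAME and 111923 to 129660 CPM in Normal Chow. The libraries differ in atrial transcripts, which a left ventricle sample would largely lack. Myl7, the atrial myosin light chain (chosen after its values were seen), had 10.2, 686, 293 and 216 CPM in HFD-LNAME 1 to 4, against 290, 0.714, 283 and 1.02 CPM in Normal Chow 1 to 4. Log2 fold changes were above 0 for 6 of 7 fibroblast, 1 of 5 macrophage, 3 of 3 Schwann cell and 1 of 10 cardiomyocyte markers tested, and 0 of these passed in edgeR. For the atrial list it was 6 of 7, with a summed level of 188 to 4227 CPM in HFD-LNAME and 165 to 2228 CPM in Normal Chow. Nr2f2 of that list (chosen after its values were seen) did not follow the atrial libraries: it had 15.6 to 18.6 CPM in HFD-LNAME and 10.2 to 13.3 CPM in Normal Chow, without overlap, with an adjusted p of 0.188 in edgeR and 0.0110 in DESeq2. By Myl7, 5 libraries stand apart, HFD-LNAME 2, 3 and 4 and Normal Chow 1 and 3, and results are also given without them.

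For none of the 8 measured PDE genes, nor for Prkg1, did the difference between the diets pass the test. With edgeR's quasi-likelihood test and Benjamini-Hochberg adjustment over all genes, 0 of the 9 genes passed the threshold of 0.05, against 2 of the 14875 genes (0.0134%). DESeq2 called 0 of the 9, against 0.963% of all genes, and limma-voom called 0 of the 9 and 0 of all genes. At an unadjusted p under 0.05, 1 of the 9 passed in edgeR, Pde3b, a share of 11.1% that lies near the 9.56% of all genes. The 2 diets overlapped for every one of the 9 genes, whereas 5.98% of all genes had groups that did not overlap. The log2 fold change, HFD-LNAME over Normal Chow, was above 0 for 6 of the 9 (66.7%), against 50.5% of all genes, and its median was 0.11, against 0.0024 over all genes. In the authors' deposited table, the adjusted p-values of the 9 genes ran between 0.429 for Pde3b and 0.992 for Pde9a.

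**Figure D1:**
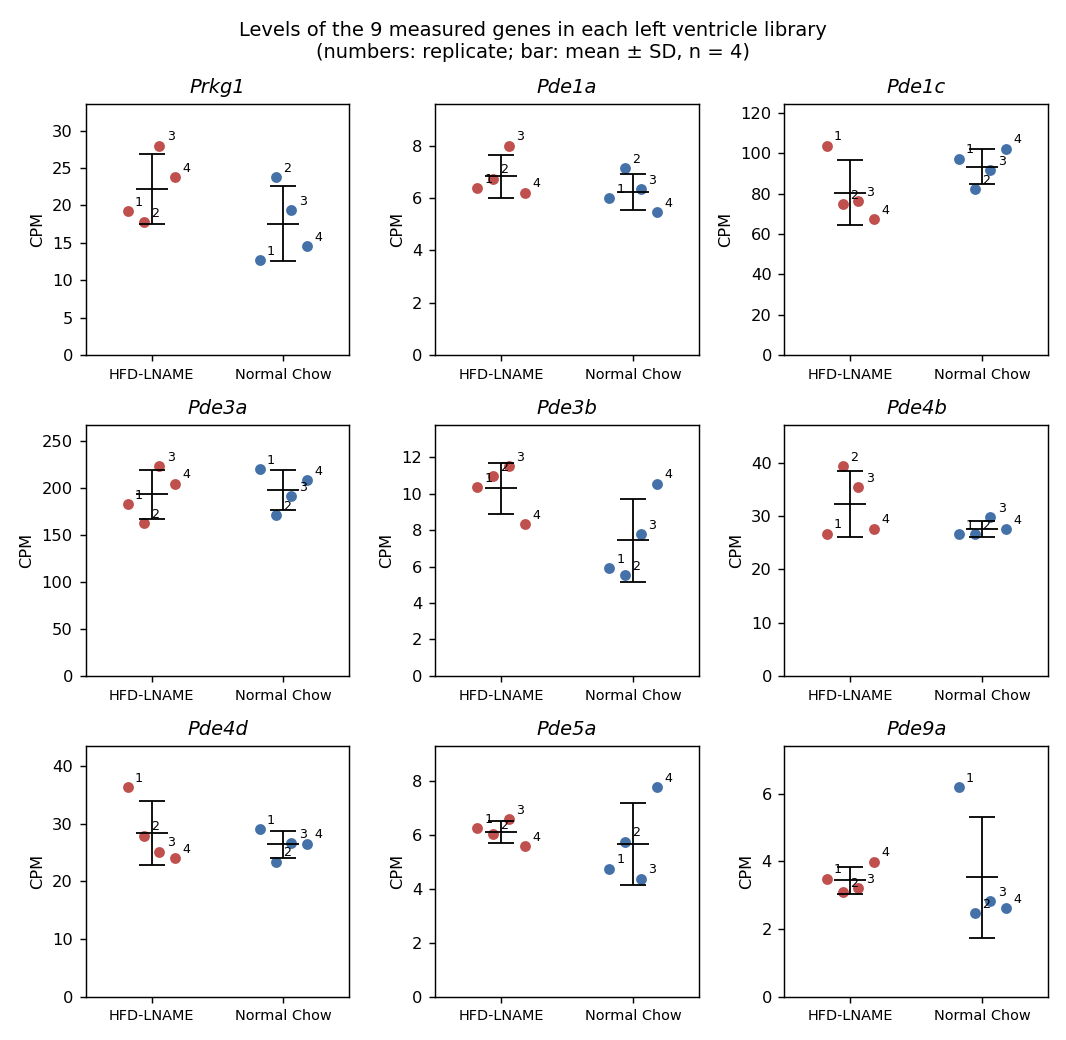
Level of each measured gene in CPM (y axis, from 0) in each library, with HFD-LNAME left of Normal Chow. Points are libraries with their replicate number and bars are the mean ± SD of 4; the groups overlap in all 9 panels, and Normal Chow 1 stands above the rest for Pde9a at 6.19 CPM.

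Prkg1 (chromosome 19) had 19.2, 17.8, 28.0 and 23.8 CPM in HFD-LNAME 1 to 4, against 12.6, 23.8, 19.3 and 14.6 CPM in Normal Chow 1 to 4. HFD-LNAME 3 was the highest library, Normal Chow 1 and 4 were the lowest, and the rest were mixed. The means were 22.2 ± 4.66 CPM in HFD-LNAME and 17.6 ± 5.02 CPM in Normal Chow (SD, n = 4 each). HFD-LNAME over Normal Chow, its log2 fold change was 0.33 ± 0.20 (SE), with an edgeR adjusted p of 0.640. Its 95% interval allows a level between 0.928 and 1.71 times that in chow-fed hearts. Leaving out single libraries moved the estimate between 0.20, without HFD-LNAME 3, and 0.52, without Normal Chow 2, so it moves by over 1.5 times with either. Without the 5 libraries that hold atrial transcripts it was -0.0005.

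PKG is abundant in vascular smooth muscle, and the markers of smooth muscle and pericytes had mostly higher means in HFD-LNAME as well. Of 15 such markers, all tested and none at 0 in any library, 12 had a log2 fold change above 0. The median of the 15 was 0.36. In edgeR 0 passed, and DESeq2 called 1, Mylk (adjusted p 0.0346, chosen after its values were seen), against 0.963% of all genes. At an unadjusted edgeR p under 0.05 there were 7 of the 15 (46.7%, against 9.56% of all genes), 6 higher and 1 lower. Their summed level was 1524 to 1790 CPM in HFD-LNAME and 1420 to 1708 CPM in Normal Chow. Myh11, smooth muscle myosin heavy chain (chosen after its values were seen), had 69.5, 76.8, 142 and 56.0 CPM in HFD-LNAME, against 25.9, 42.1, 51.8 and 26.1 CPM in Normal Chow. Abcc9, a potassium channel subunit of pericytes and muscle, was the other way, with 321 to 439 CPM in HFD-LNAME and 425 to 525 CPM in Normal Chow. Rgs5, the marker of the 15 with the highest mean, had 508 to 635 CPM in HFD-LNAME and 471 to 604 CPM in Normal Chow, and was highest in HFD-LNAME 1. HFD-LNAME 3 was highest for both Myh11 and Prkg1, and Normal Chow 1 and 4 were lowest for both. Other libraries did not match: HFD-LNAME 2 had 76.8 CPM of Myh11 but 17.8 CPM of Prkg1. Normal Chow 2 had 42.1 CPM of Myh11, below every HFD-LNAME library, but 23.8 CPM of Prkg1. The part of these markers in the Prkg1 values was not tested, and in bulk RNA fewer cells of a type and less RNA per cell cannot be told apart.

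Of the PDEs that hydrolyse cGMP alone, Pde5a is the enzyme that sildenafil inhibits and is linked to the nitric oxide pool of cGMP. Pde5a (chromosome 3) had 6.26, 6.03, 6.58 and 5.58 CPM in HFD-LNAME 1 to 4, against 4.76, 5.75, 4.38 and 7.77 CPM in Normal Chow 1 to 4. All HFD-LNAME libraries lay inside the range of the chow-fed ones. The CV was 6.91% in HFD-LNAME and 26.8% in Normal Chow. For Pde5a the log2 fold change was 0.11 ± 0.20 (SE, edgeR adjusted p 0.908), which allows a level between 0.798 and 1.46 times that in chow. Single libraries carry this estimate: it was 0.0058 without Normal Chow 3 and 0.30 without Normal Chow 4, and -0.11 without the 5 atrial libraries. In GENCODE M21 an exon of 4930447N08Rik overlaps Pde5a on the opposite strand, so reads of both could be mixed.

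Pde9a has the highest affinity for cGMP of the family and has been tied to the natriuretic peptide pool of cGMP in cardiac muscle. It was the gene with the fewest counts of the 9 (chromosome 17, 106 to 329 counts per library). Its levels were 3.49, 3.08, 3.21 and 3.99 CPM in HFD-LNAME 1 to 4, against 6.19, 2.47, 2.82 and 2.62 CPM in Normal Chow 1 to 4. Apart from Normal Chow 1, which was the highest library of all, each chow library lay below all 4 HFD-LNAME libraries. The means were 3.44 ± 0.40 CPM in HFD-LNAME and 3.53 ± 1.78 CPM in Normal Chow (SD, n = 4 each), and the log2 fold change was -0.04 ± 0.31 (SE, edgeR adjusted p 0.985). Without Normal Chow 1 it was 0.38, with an unadjusted p of 0.125 in the same edgeR test. At the lowest count, counting error alone gives a CV of 9.71%, against a CV of 50.5% among the chow libraries. Exons of AC166172.5 and AC166172.6 overlap Pde9a on the opposite strand in GENCODE M21.

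Pde1 enzymes hydrolyse both nucleotides and are switched on by calcium and calmodulin, with Pde1c the main form in cardiac muscle cells and Pde1a preferring cGMP. Pde1c (chromosome 6) had 104, 74.9, 76.3 and 67.3 CPM in HFD-LNAME 1 to 4, against 97.3, 82.2, 91.7 and 102 CPM in Normal Chow 1 to 4. HFD-LNAME 2, 3 and 4 were below every chow library, whereas HFD-LNAME 1 was above every one. The means were 80.6 ± 16.03 CPM in HFD-LNAME and 93.4 ± 8.63 CPM in Normal Chow (SD, n = 4 each). Its log2 fold change of -0.21 ± 0.13 (SE) had an edgeR adjusted p of 0.635, with a 95% interval of 0.712 to 1.05 times the chow level. Without HFD-LNAME 1 the log2 fold change was -0.36, at an unadjusted p of 0.0027 and an adjusted p of 0.262 in edgeR, and without HFD-LNAME 4 it was -0.13. The 3 low HFD-LNAME libraries are also the 3 with atrial transcripts. In Normal Chow, the atrial libraries 1 and 3 had 97.3 and 91.7 CPM, against 82.2 and 102 CPM in libraries 2 and 4. Without all 5 atrial libraries the log2 fold change was 0.17. That fit keeps only HFD-LNAME 1, the highest Pde1c library, in its group. Its sign was thus set by that library and cannot show the part of the atrial transcripts, which was not tested.

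Pde1a (chromosome 2) had 6.38, 6.73, 8.01 and 6.21 CPM in HFD-LNAME 1 to 4, against 5.98, 7.14, 6.34 and 5.46 CPM in Normal Chow 1 to 4. The groups were mixed, with HFD-LNAME 3 highest, as for Prkg1. For Pde1a the log2 fold change was 0.13 ± 0.16 (SE, edgeR adjusted p 0.837), within 0.863 to 1.39 times the chow level at 95%, and the estimate was 0.05 without HFD-LNAME 3 and 0.21 without Normal Chow 2.

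The ratio of Pde1c to Pde1a counts was 16.3, 11.1, 9.53 and 10.8 in HFD-LNAME 1 to 4, against 16.3, 11.5, 14.5 and 18.7 in Normal Chow 1 to 4. It averaged 11.9 ± 2.98 in HFD-LNAME and 15.2 ± 3.04 in Normal Chow (SD, n = 4 each), and HFD-LNAME 1 lay among the chow libraries. A ratio within a library does not depend on scaling, but it mixes the 2 gene lengths, and it is given as a description.

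**Figure D2:**
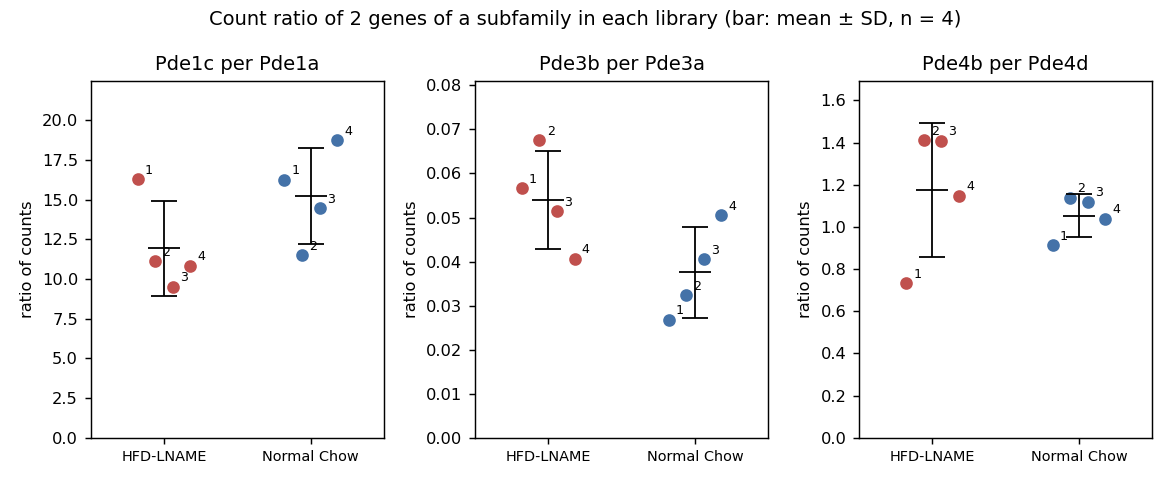
Ratio of the counts of 2 genes of a subfamily (y axis, no unit) in each library, with HFD-LNAME left of Normal Chow; points are libraries with their replicate number and bars are the mean ± SD of 4. All 3 ratios overlap between the diets, with means of 11.9 and 15.2 for Pde1c per Pde1a, 0.0541 and 0.0375 for Pde3b per Pde3a, and 1.18 and 1.05 for Pde4b per Pde4d in HFD-LNAME and Normal Chow.

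Pde3 enzymes hydrolyse cAMP and are inhibited by cGMP; Pde3a is the cardiac form that milrinone blocks. Pde3a (chromosome 6) had 183, 163, 223 and 205 CPM in HFD-LNAME 1 to 4, against 221, 171, 192 and 209 CPM in Normal Chow 1 to 4. The groups covered nearly the same range. The log2 fold change was -0.03 ± 0.11 (SE, edgeR adjusted p 0.956), and the 95% interval of 0.825 to 1.16 times the chow level is the narrowest of the 9. With 6393 to 11730 counts per library, counting error was at most 1.25% here. Gm28523 has an exon on the opposite strand of Pde3a in GENCODE M21.

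Pde3b is best known in adipocytes, where insulin activates it to stop lipolysis, and it is also present in cardiac muscle. Pde3b (chromosome 7) had 10.35, 10.97, 11.5 and 8.34 CPM in HFD-LNAME 1 to 4, against 5.91, 5.53, 7.78 and 10.5 CPM in Normal Chow 1 to 4. Normal Chow 4 lay within the HFD-LNAME range, and the other 3 chow libraries were below all HFD-LNAME libraries. The means were 10.3 ± 1.38 CPM in HFD-LNAME and 7.44 ± 2.29 CPM in Normal Chow (SD, n = 4 each). Its log2 fold change of 0.47 ± 0.21 (SE), the largest of the 9, had an unadjusted p of 0.0440 and an adjusted p of 0.507 in edgeR. The adjusted p was 0.448 in DESeq2 and 0.450 in limma-voom. Without Normal Chow 4 the log2 fold change was 0.69, and its lowest value over the fits that leave out 1 library was 0.35. Of these 8 fits, 2 kept an unadjusted p under 0.05, and none passed after adjustment. The count ratio of Pde3b to Pde3a was 0.0566, 0.0675, 0.0515 and 0.0407 in HFD-LNAME, against 0.0268, 0.0324, 0.0405 and 0.0505 in Normal Chow, with HFD-LNAME 4 inside the chow range.

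Adipocyte markers had higher means in HFD-LNAME too. Of the 11 markers, 9 were tested, all 9 had a log2 fold change above 0, and 8 had an unadjusted edgeR p under 0.05 (88.9%, against 9.56% of all genes). After adjustment 0 passed in edgeR, and DESeq2 called 2, against 0.963% of all genes. The summed level of all 11 markers, mostly Fabp4, was 570 to 905 CPM in HFD-LNAME and 537 to 655 CPM in Normal Chow. Fabp4 was highest in HFD-LNAME 1 (752 CPM) and lowest in HFD-LNAME 3 (414 CPM), so this sum does not follow Plin1, given below. Ucp1 was at 0 in HFD-LNAME 1 and 4 and in Normal Chow 1 and 4, and Retn was at 0 in HFD-LNAME 3 and 4 and in Normal Chow 2, 3 and 4. Plin1, which coats the fat droplet of adipocytes (chosen after its values were seen), had 1.60, 12.0, 8.73 and 2.57 CPM in HFD-LNAME, against 2.13, 0.444, 0.742 and 0.466 CPM in Normal Chow. HFD-LNAME 2 and 3 were the highest libraries for both Plin1 and Pde3b, while Normal Chow 4, the highest chow library for Pde3b, was low for Plin1. Lipe, the hormone-sensitive lipase that Pde3b activity restrains in fat cells, had 88.8, 63.6, 64.8 and 72.0 CPM in HFD-LNAME, against 38.0, 51.5, 47.6 and 61.8 CPM in Normal Chow, without overlap. Its adjusted p was 0.265 in edgeR and 0.0374 in DESeq2. The part of adipocyte transcripts in the Pde3b values was not tested. Without HFD-LNAME 2 and 3 the Pde3b log2 fold change was 0.33.

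Pde4 enzymes hydrolyse cAMP alone, and in cardiac muscle cells Pde4b sits with the L-type calcium channel and Pde4d with the ryanodine receptor. Pde4b (chromosome 4) had 26.7, 39.4, 35.4 and 27.6 CPM in HFD-LNAME 1 to 4, against 26.6, 26.7, 29.8 and 27.6 CPM in Normal Chow 1 to 4. HFD-LNAME 2 and 3 were above every chow library and HFD-LNAME 1 and 4 lay among them. The CV was 19.0% in HFD-LNAME and 5.45% in Normal Chow. For Pde4b the log2 fold change was 0.22 ± 0.13 (SE, edgeR adjusted p 0.617), with 0.963 to 1.42 times the chow level as the 95% interval. The estimate rested on the 2 high libraries: it was 0.11 without HFD-LNAME 2 and -0.02 without both HFD-LNAME 2 and 3. They are also the libraries with the most Plin1. For Myl7 they had 686 and 293 CPM, against 290 and 283 CPM in Normal Chow 1 and 3, where Pde4b was 26.6 and 29.8 CPM. The part of adipocyte or atrial transcripts was not tested.

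Pde4d (chromosome 13) had 36.3, 27.9, 25.2 and 24.1 CPM in HFD-LNAME 1 to 4, against 29.1, 23.4, 26.6 and 26.6 CPM in Normal Chow 1 to 4. Only HFD-LNAME 1 lay above the chow range. For Pde4d the log2 fold change was 0.10 ± 0.13 (SE, edgeR adjusted p 0.851), within 0.878 to 1.31 times the chow level at 95%, and it was -0.04 without HFD-LNAME 1. HFD-LNAME 1 was thus the highest library for both Pde1c and Pde4d, and Pde4b was at the chow level in it. The count ratio of Pde4b to Pde4d was 0.735, 1.41, 1.41 and 1.15 in HFD-LNAME 1 to 4, against 0.914, 1.14, 1.12 and 1.04 in Normal Chow 1 to 4. HFD-LNAME 1 was the lowest library for this ratio and HFD-LNAME 2 and 3 the highest.

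**Figure D3:**
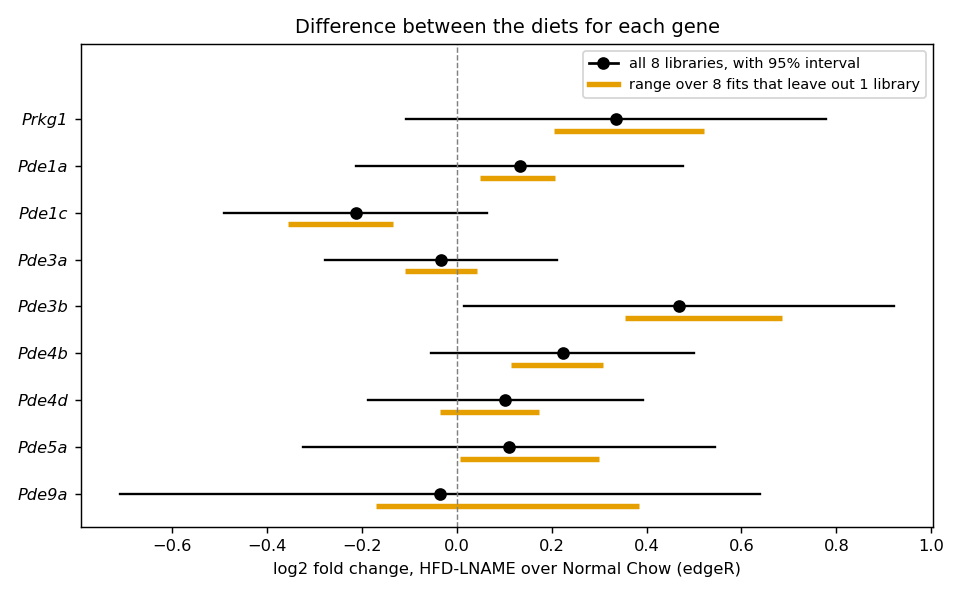
Log2 fold change of each gene, HFD-LNAME over Normal Chow (x axis), with its 95% interval (black line) and the range over the 8 fits that leave out 1 library (orange bar). Pde3b has the largest value, 0.47, and the orange bars of Pde3a, Pde4d and Pde9a cross 0.

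Without the 5 libraries with atrial transcripts, HFD-LNAME 1 was set against Normal Chow 2 and 4, and the lone HFD-LNAME library was assumed to vary like the chow ones. The log2 fold change was then 0.37 for Pde3b, 0.02 for Pde1a and -0.06 for Pde3a. It was 0.54 for Pde4d, with an unadjusted edgeR p of 0.0201 and an adjusted p of 0.494, and 0.45 for Pde9a. For Prkg1 it was -0.0005. The signs of Pde1c, Pde4b, Pde5a and Pde9a were opposite to those over all 8 libraries, but a fit with 1 HFD-LNAME library cannot show a reversal.

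**Figure D4:**
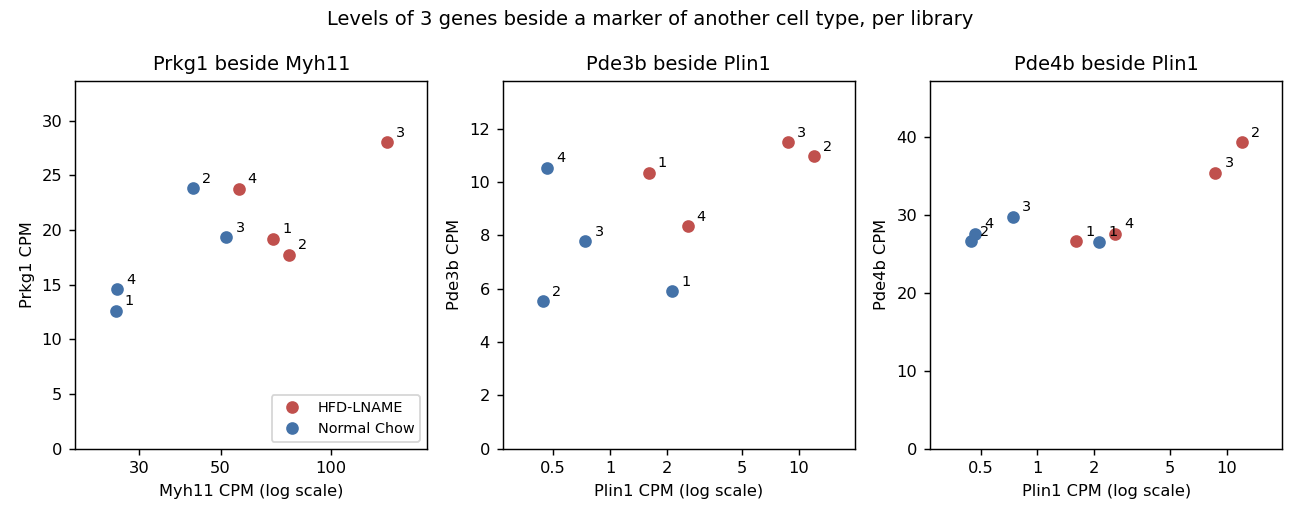
Level of Prkg1 beside Myh11 and of Pde3b and Pde4b beside Plin1, all in CPM, with the marker on a log x axis; each point is a library with its replicate number, red for HFD-LNAME and blue for Normal Chow. HFD-LNAME 3 is highest for both Prkg1 (28.0) and Myh11 (142), whereas Normal Chow 2 has 23.8 of Prkg1 with 42.1 of Myh11. HFD-LNAME 2 and 3 are highest for Plin1 (12.0 and 8.73) and for Pde4b (39.4 and 35.4).

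Levels of different genes were compared as CPM per kb of merged exon (lengths from GENCODE M21, of the C57BL/6J strain). Over the 8 libraries, Pde3a averaged 15.4 CPM per kb, and its lowest library, at 12.8, was above every library of the next gene. Pde1c followed at 4.33, Pde4b at 2.84, Pde4d at 2.28 and Prkg1 at 1.83 CPM per kb. Pde1a at 1.09, Pde9a at 0.985, Pde3b at 0.973 and Pde5a at 0.599 CPM per kb were the lowest of the 9. Apart from Pde3a, the range of each gene overlapped that of the next. Within a library the order was firmer for some neighbours: Pde1c was above Pde4b, Prkg1 above Pde1a and Pde3b above Pde5a in 8 of 8 libraries. Pde4d was above Prkg1 in only 5 of 8 and Pde9a above Pde3b in 3 of 8, so those neighbours do not differ beyond their spread. Merged exons overstate the length of a transcript for genes with many isoforms, such as Pde4d, and understate such levels. Pde1c had the longest merged exons of the 9, 20.1 kb, against 12.0 kb for Pde4d and 10.6 kb for Pde4b. The level of Pde1c per kb, and its overlap with Pde4b, depend on that length.

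The 3 genes whose pattern over the 8 libraries was most like that of Prkg1, by root mean square difference of centred log2 CPM among 9767 named genes, were Atad2 (0.13), Tmem68 (0.13) and G0s2 (0.14). For Pde3b they were Hyal1 (0.11), Slc25a30 (0.15) and Csdc2 (0.17), and for Pde4b they were Ltbp3 (0.05), Il33 (0.06) and Foxn2 (0.07). For scale, the SD of the centred log2 CPM was 0.38 for Prkg1, 0.41 for Pde3b and 0.22 for Pde4b. Ltbp3, the closest match of all, had 38.2, 58.6, 57.01 and 42.7 CPM in HFD-LNAME 1 to 4, against 37.8, 39.7, 44.1 and 41.7 CPM in Normal Chow 1 to 4. As Ltbp3 was chosen for its likeness to Pde4b, its high values in HFD-LNAME 2 and 3 follow from that choice.

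The remaining genes of the pathway were read from lists of 78 genes, of which 67 were tested. In edgeR 0 of the 67 passed the adjusted threshold, and limma-voom called 0. DESeq2 called 1, Akap5, with an adjusted p of 0.0488, against 0.963% of all genes called by DESeq2. At an unadjusted edgeR p under 0.05, 11 of the 67 passed (16.4%, against 9.56% of all genes), 8 higher (5.02% of all genes) and 3 lower (4.54% of all genes) in HFD-LNAME. Groups did not overlap for 4 of the 67 (5.97%, against 5.98% of all genes): Npr1, Ppp1r12a, Gnai1 and Pde4dip.

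**Figure D5:**
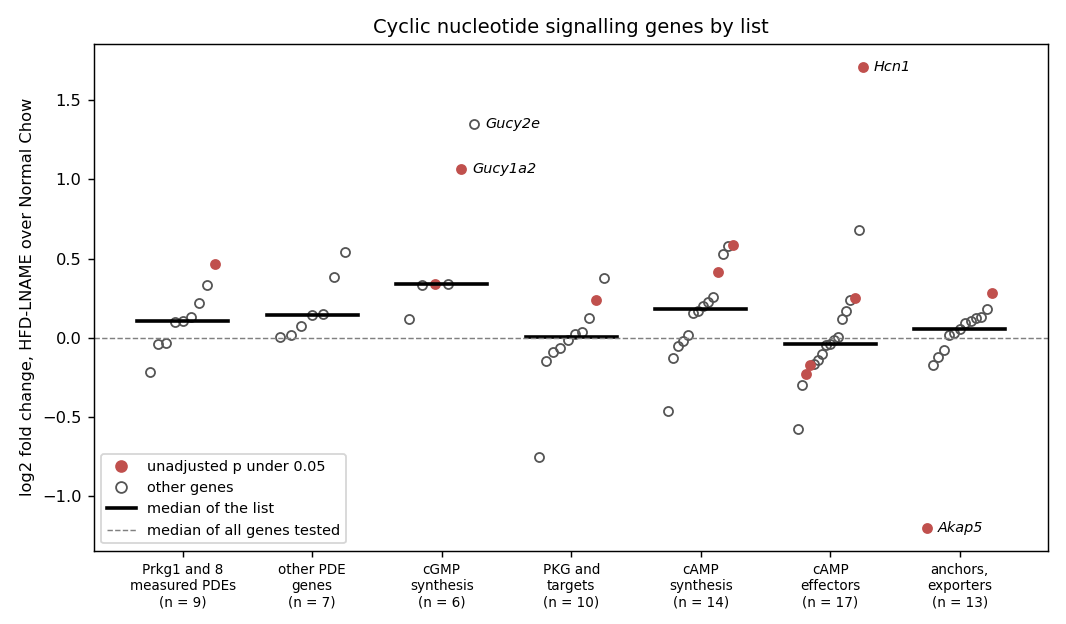
Log2 fold change, HFD-LNAME over Normal Chow (y axis), of every tested gene in 7 lists; each circle is a gene, filled red for an unadjusted p under 0.05, the black bar is the median of a list and the dashed line the median of all genes. The cGMP synthesis list has the highest median, 0.34, and 0 of the genes shown pass the adjusted threshold in edgeR.

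Among the other PDEs, all 7 tested genes had a log2 fold change above 0, with a median of 0.15, and 0 had an unadjusted p under 0.05. They include Pde4a and Pde4c, named here for their subfamily after their values were seen. Pde4a had 94.0 ± 14.3 CPM in HFD-LNAME and 92.6 ± 3.28 CPM in Normal Chow (SD, n = 4 each). Pde4c had 8.86 ± 1.27 CPM in HFD-LNAME and 7.99 ± 1.78 CPM in Normal Chow. Pde7a, a cAMP-specific PDE, had 137, 87.1, 91.0 and 146 CPM in HFD-LNAME 1 to 4, against 85.0, 70.9, 90.2 and 108 CPM in Normal Chow 1 to 4, with HFD-LNAME 1 and 4 above all chow libraries. Its log2 fold change was 0.38 ± 0.18 (SE, edgeR adjusted p 0.536). Pde1b, of the calcium-activated subfamily of Pde1a and Pde1c, was low, with 1.37 to 2.38 CPM in HFD-LNAME and 0.752 to 2.06 CPM in Normal Chow (log2 fold change 0.54 ± 0.40, SE).

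The enzymes that make cGMP, a substrate of Pde1a, Pde1c, Pde5a and Pde9a, had the highest median of the pathway lists. All 6 tested genes were above 0 in log2 fold change with a median of 0.34, and 2 had an unadjusted edgeR p under 0.05 (33.3%, against 9.56% of all genes). The summed level of all 9 genes of the list, tested or not, was 152 to 168 CPM in HFD-LNAME and 125 to 137 CPM in Normal Chow. Npr1, the receptor for atrial and brain natriuretic peptide, had 34.3, 38.3, 36.2 and 29.9 CPM in HFD-LNAME, against 28.5, 25.8, 29.2 and 26.3 CPM in Normal Chow, with no overlap. Its log2 fold change was 0.34 ± 0.10 (SE), with an unadjusted p of 0.0049 and an adjusted p of 0.289 in edgeR. Gucy1a2, a minor alpha subunit of soluble guanylyl cyclase, had 0.902 to 2.58 CPM in HFD-LNAME and 0.614 to 1.39 CPM in Normal Chow (log2 fold change 1.06 ± 0.44, SE, edgeR adjusted p 0.473). The main subunits of this nitric oxide receptor, named here for that role after their values were seen, were Gucy1a1 at 22.4 ± 5.44 CPM in HFD-LNAME and 17.7 ± 1.79 CPM in Normal Chow and Gucy1b1 at 22.9 ± 2.50 CPM in HFD-LNAME and 18.1 ± 5.32 CPM in Normal Chow (SD, n = 4 each). Their edgeR adjusted p-values were 0.542 for Gucy1a1 and 0.604 for Gucy1b1. Endothelial markers were summed at 1187 to 1548 CPM in HFD-LNAME and 1158 to 1254 CPM in Normal Chow, with 11 of 12 above 0 in log2 fold change and 5 of 12 (41.7%) at an unadjusted p under 0.05, and their part in these values was not tested.

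On the PKG side, the list of 10 tested genes had a median log2 fold change of 0.0058, 5 of them above 0. It holds targets and partners of PKG and also Prkg2, another cGMP-dependent kinase. Prkg2 was low, at 0.249 CPM in HFD-LNAME and 0.422 CPM in Normal Chow (log2 fold change -0.75). Ppp1r12a, the myosin phosphatase subunit on which PKG acts to relax smooth muscle, had 66.9, 62.7, 68.1 and 63.0 CPM in HFD-LNAME, against 54.5, 55.5, 56.5 and 54.7 CPM in Normal Chow, without overlap (log2 fold change 0.24 ± 0.07, SE, edgeR adjusted p 0.284). Irag1 (Mrvi1 in the files), the PKG substrate at the inositol trisphosphate receptor, had 12.2, 17.2, 27.3 and 15.6 CPM in HFD-LNAME, against 15.01, 14.1, 15.6 and 10.7 CPM in Normal Chow. As for Prkg1, HFD-LNAME 3 was its highest library, and the log2 fold change of 0.38 ± 0.22 (SE) was 0.11 without it and -0.03 without the 5 atrial libraries.

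On the cAMP side, 10 of the 14 tested genes of synthesis were above 0, with a median of 0.18. Gnai1, an inhibitory G protein subunit, had 8.84, 11.2, 11.1 and 8.86 CPM in HFD-LNAME, against 6.55, 6.17, 8.23 and 5.65 CPM in Normal Chow, without overlap (log2 fold change 0.59 ± 0.16, SE, edgeR adjusted p 0.265). Adcy4, an adenylyl cyclase, had 24.1 to 34.1 CPM in HFD-LNAME and 19.9 to 25.1 CPM in Normal Chow (log2 fold change 0.42 ± 0.12, SE). Of the 17 effectors of cAMP, 7 were above 0 and the median was -0.04. An unadjusted edgeR p under 0.05 was reached by 4 of the 17 (23.5%, against 9.56% of all genes), 2 higher and 2 lower. The summed level of the 17 was 2308 to 2402 CPM in HFD-LNAME and 2474 to 2670 CPM in Normal Chow, lower in HFD-LNAME without overlap. Rapgef3 (Epac1), a cAMP-activated exchange factor, had 28.4 to 34.4 CPM in HFD-LNAME and 24.6 to 29.4 CPM in Normal Chow, while Popdc2, a cAMP-binding membrane protein, had 539 to 643 CPM in HFD-LNAME and 622 to 776 CPM in Normal Chow. Neither passed, with edgeR adjusted p-values of 0.440 for Rapgef3 and 0.460 for Popdc2.

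Anchoring proteins hold PKA and PDEs at their compartments. Of 13 anchors and exporters, 9 were above 0 in log2 fold change, with a median of 0.06. Akap5, the anchor of PKA at adrenergic receptors and calcium channels, had 2.602, 2.64, 2.43 and 1.67 CPM in HFD-LNAME, against 5.96, 8.49, 4.38 and 2.56 CPM in Normal Chow, with Normal Chow 4 inside the HFD-LNAME range. Its log2 fold change of -1.20 ± 0.34 (SE) had an adjusted p of 0.280 in edgeR and 0.0488 in DESeq2. Pde4dip (myomegalin), which binds Pde4d, had 3413, 2794, 3457 and 3612 CPM in HFD-LNAME, against 2651, 2700, 2765 and 2770 CPM in Normal Chow, without overlap (log2 fold change 0.29 ± 0.08, SE, edgeR adjusted p 0.296). Its partner Pde4d differed by 0.10 on the same scale.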

How the data were processed

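RNA of the left ventricle of 8 mice was measured by RNA-seq. The authors deposited raw counts per gene, and a table of log2 fold changes with standard errors, p-values and adjusted p-values, whose log2 and p-value columns are quoted only as the authors' deposited values. Tools named in the submitters' processing notes are STAR 2.6, DESeq2 1.22.1, Trim Galore 0.4.0 and bcl2fastq 1.8.4. A human build appears in those notes, but the row names belong to the mouse C57BL/6NJ annotation, so no position is taken from the files. How reads were counted, and on which strand, is not given in the sources used here.

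Of 41096 genes in the count table, those passing filterByExpr (minimum count 10) went into edgeR 4.0.16 under R 4.3.3 (TMM factors, quasi-likelihood test, no covariate, Benjamini-Hochberg adjustment over all genes tested, threshold 0.05). A standard error is |log2 fold change| over the root of F, and 95% intervals are unadjusted. Unnamed rows, 9.19% to 10.5% of each library, were kept. The scripts were tested on simulated data. Alternatives were DESeq2 1.42.0, limma-voom (limma 3.58.1), other scalings and filters, and leaving out libraries. Replicates were numbered in accession order and pair no samples. Libraries of a group differed beyond sampling noise (chi-square per degree of freedom of at least 22.2). Total counts were 31522074 to 52053633 per library, and counting error at the lowest count was 9.71% for Pde9a and 1.25% for Pde3a. Named pathway genes are the 2 with the smallest p of each list, and genes named for likeness are the 3 with the smallest root mean square difference among named genes with a mean of at least 5 CPM. The genes and lists were chosen with earlier results of these data known. Pde2a, and of the lists Pde6b, Pde6c, Pde8b, Adcy10 and Lyz2, were not analysed here.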

Additional observations from a re-analysis of the deposited data

Results flagged for a closer look

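Among the 18 groups of 4 libraries examined (9 genes in 2 diets), 1 held a library far from the others. Pde9a was at 6.19 CPM in Normal Chow 1, against 2.47 to 2.82 CPM in the other 3 chow libraries, a gap of 0.905 of the whole range that exceeds Dixon's critical value at 95% for 4 samples. Chance flags about 1 in 20 such groups. Normal Chow 1 also held atrial transcripts, as did Normal Chow 3, where Pde9a was at 2.82 CPM.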

How the results depend on the processing

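Of the 9 genes, 0 passed the adjusted threshold in each of the 17 alternatives. The count over all genes, 2 in edgeR, was 161 with DESeq2, 0 with limma-voom, 34 with no filter on low counts, 1 with a mean of at least 5 CPM, 1 with a robust edgeR fit, 0 to 3 when single libraries were left out, 0 without HFD-LNAME 2 and 3, and 52 without the 5 libraries with atrial transcripts. The pathway count, 0 in edgeR, was 1 with DESeq2 (Akap5, log2 fold change -1.20) and 1 without the 5 atrial libraries (Adcy1). Without those 5 libraries Prkg1 was at -0.0005, and signs turned for Pde1c (0.17), Pde4b (-0.025), Pde5a (-0.11), Pde9a (0.45) and Irag1 (-0.034). Without HFD-LNAME 2 and 3 they turned for Pde4b (-0.023) and Pde9a (0.086), and with limma-voom for Pde9a (0.044). Over the fits that leave out 1 library, the log2 fold change ran from -0.11 to 0.042 for Pde3a, from -0.036 to 0.17 for Pde4d and from -0.17 to 0.38 for Pde9a, and it kept its sign for the other 6 genes. The cause of these changes was not tested. Pde9a, Pde1b, Gucy1a2 and Akap5 have no value with the minimum mean of 5 CPM. The values of the named pathway genes under these alternatives were chosen after seeing the data. No paired analysis was possible because the labels give the 2 groups no shared replicate numbers. With 4 mice a group, the 95% intervals of the 9 genes reach down to 0.611 times the chow level (Pde9a) and up to 1.90 times (Pde3b), and the narrowest is 0.825 to 1.16 times (Pde3a).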
